A study of Arabidopsis thaliana with 6 samples.

Results

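The 10 genes compared here belong to the aliphatic glucosinolate pathway in Arabidopsis thaliana. Of these, 8 build the core structure and 2 oxidise the side chain, and they were measured in seedlings of the insertion line ahl13-1 with and without the bacterium Pst hrcC. They were chosen by gene identifier, with earlier results of these data known, and all 10 were among the 27371 identifiers of the deposited table: CYP79F1 (AT1G16410), CYP79F2 (AT1G16400), CYP83A1 (AT4G13770), GSTF11 (AT3G03190), GSTU20 (AT1G78370), UGT74C1 (AT2G31790), SOT17 (AT1G18590), SOT18 (AT1G74090), FMO GS-OX1 (AT1G65860) and FMO GS-OX3 (AT1G62560). All 6 libraries came from the ahl13-1 line (SALK_014014), which carries an insertion in AHL13, a gene for a nuclear protein with an AT-hook DNA-binding motif. The 3 control and 3 treated libraries were made from whole seedlings 14 days old, grown in long days on MS medium without sugar. Treated seedlings had been sprayed with Pst hrcC, a Pseudomonas syringae strain that cannot deliver effectors by type III secretion, at an OD600 of 0.002 for 24 hours, and the labels do not say what the controls received. No wild type was analysed here, so every difference is one between treatments within the mutant line.

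Glucosinolates are sulfur-rich defence compounds of the cabbage order, stored intact and cut by myrosinases when tissue is damaged. In the aliphatic branch, methionine is lengthened, converted to an aldoxime by CYP79F enzymes, oxidised by CYP83A1, conjugated with glutathione, cleaved, glucosylated and finally sulfated by sulfotransferases. The side chain is then modified, first by flavin monooxygenases of the FMO GS-OX group, which oxidise its methylthio sulfur. The indole branch passes tryptophan through the same chemical steps with its own CYP79B, CYP83B1 and SOT16 enzymes.

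Every one of the 10 genes had a higher mean level after Pst hrcC, from 2.15 times the control mean for UGT74C1 to 8.52 times for CYP79F1, in FPKM (fragments per kilobase of transcript scaled to the mapped fragments of the library). In 9 of the 10 the 3 treated values lay above the 3 control values, against 7.66% of the 16923 genes tested; GSTU20 was the exception. None of the 10 passed the test across all tested genes (limma, Benjamini-Hochberg adjusted p under 0.05), which called 0.284% of them higher. All 10 had an unadjusted p under 0.05 and were higher, against 5.18% of tested genes. With libraries weighted by their estimated reliability (array weights) 7 of the 10 passed, where 2.19% of tested genes were called higher. The weight was 5.01 for control replicate 2, against 0.432 and 0.621 for control replicates 1 and 3, so these calls lean on 1 control library. Without the replicate 1 pair 3 passed, where 1.02% of tested genes were called higher. The median log2 difference over the 10 genes, on the log2(FPKM + 1) scale that understates low genes, was 1.60, and it was 0.035 over all tested genes. These counts include FMO GS-OX1, which entered the test through its treated values, its control mean being below the filter of 1 FPKM; without it they are 8 of 9 apart, 9 of 9 at the unadjusted p and 6 of 9 with array weights. Because the 10 were chosen with earlier results of these data known, the counts beside these shares are a description and no test of the set.

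The libraries were of unequal depth and composition. From the size of the smallest steps in the values, relative depth ran from 0.808 for Pst hrcC replicate 3 to 4.88 for control replicate 2, with control replicate 1 set to 1. Summed FPKM ran from 550765 to 2156590, of which a single short transcript (AT2G01021) held from 15.6% to 52.0%. AHL13 itself measured 2.32, 2.17 and 2.47 FPKM among controls against 1.98, 2.43 and 2.08 FPKM among treated libraries (limma log2 difference -0.07 ± 0.12 SE, adjusted p = 1.00), which does not check the insertion without a wild type. The labelled whole seedlings held leaf transcripts (8 of 8 markers, summed at 23724 to 30369 FPKM in controls and 22174 to 33323 FPKM after treatment) and root transcripts (13 of 13 markers detected, summed at 41.2 to 63.2 and 56.8 to 70.3 FPKM); the Casparian strip gene CASP5 was listed at 0 in control replicate 1. None of these markers passed the test. In whole seedlings a change in the share of a tissue and a change in RNA per cell cannot be told apart.

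Upstream windows of 4 genes are shown because they set the tandem CYP79F genes beside the 2 other genes of the 10 that held a searched motif. Each runs for 250 bases up to the annotated gene start, 5′ to 3′ on the gene's strand, from RefSeq's TAIR10.1 assembly: chr1:5608432-5608681 and chr1:5604794-5605043 on the plus strand, chr4:7992430-7992679 on the minus strand and chr1:6398281-6398530 on the plus strand. Capitals mark matches, on either strand, to the G-box CACGTG, a sequence bound by MYC factors of jasmonate signalling, or to the AC elements ACCTACC and ACCAACC, sequences bound by plant R2R3-MYB factors.
CYP79F1: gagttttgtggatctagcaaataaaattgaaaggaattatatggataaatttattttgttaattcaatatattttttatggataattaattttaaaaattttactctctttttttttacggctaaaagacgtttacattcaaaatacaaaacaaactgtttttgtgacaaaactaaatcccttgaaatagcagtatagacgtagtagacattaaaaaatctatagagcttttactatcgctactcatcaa
CYP79F2: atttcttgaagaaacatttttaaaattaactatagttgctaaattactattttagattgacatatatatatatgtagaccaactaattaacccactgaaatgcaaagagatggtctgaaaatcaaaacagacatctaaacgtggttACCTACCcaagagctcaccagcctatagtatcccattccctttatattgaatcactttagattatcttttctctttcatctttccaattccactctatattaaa
CYP83A1: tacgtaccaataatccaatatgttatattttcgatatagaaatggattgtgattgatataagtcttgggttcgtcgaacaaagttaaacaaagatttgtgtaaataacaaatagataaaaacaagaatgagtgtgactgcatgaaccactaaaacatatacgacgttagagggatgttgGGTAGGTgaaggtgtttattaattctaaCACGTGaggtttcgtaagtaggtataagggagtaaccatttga
SOT17: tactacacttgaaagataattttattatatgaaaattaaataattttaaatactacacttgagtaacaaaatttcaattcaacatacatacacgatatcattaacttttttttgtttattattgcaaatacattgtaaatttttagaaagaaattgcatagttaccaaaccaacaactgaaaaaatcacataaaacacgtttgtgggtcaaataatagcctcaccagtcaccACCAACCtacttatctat

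The CYP79F1 window held none of the 3 motifs, and that of CYP79F2 held ACCTACC beginning 104 bases before the gene start. CYP83A1 held the same element on the opposite strand, as GGTAGGT, 71 bases before the start, and a G-box 43 bases before it. SOT17 held ACCAACC 18 bases before its start. Over the 10 genes, ACCTACC was present in 2 windows, ACCAACC in 1 and the G-box in 1, while 1.16%, 2.71% and 6.58% of 26697 windows of the same length held them. A match describes letters in a window and was not tied to binding or to the levels below.

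The first step of the core pathway, formation of the aldoxime, is shared by CYP79F1 and CYP79F2, which in Arabidopsis accept elongated methionine derivatives. CYP79F1 was at 10.4, 0.903 and 1.25 FPKM in control replicates 1, 2 and 3, against 35.1, 23.1 and 48.8 FPKM in the same replicates of the treated group. Control replicate 1 stood apart from the other controls, at 9.70 times their mean, and was still below every treated library. The log2 difference was 3.27 ± 0.69 (SE; limma adjusted p = 0.207), and the gene passed without control replicate 1 (log2 difference 4.09, limma adjusted p = 0.0383) and without the replicate 1 pair (4.07, limma adjusted p = 0.0206). It did not pass when any other single library was left out (limma adjusted p from 0.242 to 0.718).

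CYP79F2 was at 6.19, 4.29 and 1.92 FPKM among controls against 9.21, 11.2 and 20.8 FPKM among treated libraries, again with no overlap. Its log2 difference was 1.54 ± 0.41 (SE; limma adjusted p = 0.379). The pair changed places in abundance: CYP79F2 was the more abundant in control replicates 2 and 3, where the ratio of CYP79F1 to CYP79F2 was 0.211 and 0.649, while CYP79F1 led in control replicate 1 (1.68) and in the treated libraries (3.81, 2.06 and 2.34). Tested as a log2 ratio with 1 FPKM added to each term, as were the ratios that follow, it was higher after treatment by 1.73 ± 0.67 (SE, n = 3 each; two-sided exact permutation p = 0.1, the lowest this design can reach; 0.267 adjusted over the 8 ratios compared). The added value matters for genes this low, since the log2 difference was 2.05 with 0.1 FPKM added and 1.23 with 5 FPKM added. The genes lie in tandem on chromosome 1 with 1183 bases between them, their coding sequences are 91.2% identical, and the longest identical stretch is 100 bases, so the division of reads between them is uncertain.

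CYP83A1, the cytochrome P450 that oxidises the aliphatic aldoximes, was the second most abundant of the 10 genes in all 6 libraries except control replicate 3, with 73.6, 25.02 and 19.2 FPKM among controls against 112, 104 and 162 FPKM among treated libraries. The groups did not overlap, and on the log2(FPKM + 1) scale control replicate 1 lay closer to the treated libraries than to the other controls. The log2 difference was 1.88 ± 0.49 (SE; limma adjusted p = 0.364; 0.0319 without the replicate 1 pair, and from 0.0592 to 0.990 without 1 library).

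A pair of glutathione transferases is placed at the conjugation step, thought to act on the oxidised aldoxime. GSTF11 was at 4.198, 3.22 and 2.94 FPKM among controls against 14.6, 18.3 and 36.0 FPKM among treated libraries. Its controls lay close together, and the lowest treated value was 3.49 times the highest control. The log2 difference of 2.34 ± 0.32 (SE) had the smallest p of the 10 genes and missed the threshold (limma adjusted p = 0.0604); it passed without Pst hrcC replicate 1 (2.60, limma adjusted p = 0.0261) and without the replicate 1 pair (2.71, limma adjusted p = 0.0436). It missed the threshold in the other 5 fits that left out 1 library (limma adjusted p from 0.114 to 0.347) and with replicate number as a block (0.0814). GSTU20 was the most abundant of the 10 genes in every library. It was at 188, 48.1 and 38.9 FPKM among controls against 334, 149.9 and 282 FPKM among treated libraries. Control replicate 1 exceeded Pst hrcC replicate 2, which made GSTU20 the one gene whose groups overlapped (log2 difference 1.76 ± 0.62 SE; limma adjusted p = 0.616).

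UGT74C1, a glucosyltransferase assigned to the aliphatic branch, was at 21.3, 12.7 and 11.5 FPKM among controls against 30.4, 25.3 and 42.0 FPKM among treated libraries. The groups were apart by a small margin, and the log2 difference of 1.07 ± 0.28 (SE; limma adjusted p = 0.379) was the smallest of the 10.

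SOT17 and SOT18 encode the sulfotransferases that complete the aliphatic core. SOT17 was at 22.1, 9.34 and 6.96 FPKM among controls against 32.0, 24.8 and 49.8 FPKM among treated libraries (log2 difference 1.503 ± 0.44 SE; limma adjusted p = 0.455). SOT18 was at 26.02, 24.96 and 24.97 FPKM among controls against 57.8, 65.1 and 95.9 FPKM among treated libraries (1.46 ± 0.21 SE; limma adjusted p = 0.0695; 0.0366 without Pst hrcC replicate 1, and from 0.142 to 0.398 without any other). Both sets of values were apart, with the lowest treated value at 1.12 times the highest control for SOT17 and 2.22 times for SOT18. The controls of SOT17 differed by 3.17 times and those of SOT18 by 1.04 times. The ratio of SOT17 to SOT18 was accordingly highest in control replicate 1 (0.849 against 0.374 and 0.279) and was 0.554, 0.381 and 0.519 after treatment, with a log2 difference of 0.05 ± 0.47 (SE, n = 3 each; two-sided exact permutation p = 1). Their coding sequences are 76.9% identical with a longest shared stretch of 26 bases.

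FMO GS-OX1 and FMO GS-OX3, which convert methylthioalkyl to methylsulfinylalkyl glucosinolates, were the least abundant of the 10 in the treated libraries. FMO GS-OX1 was at 1.13, 0.339 and 0.219 FPKM among controls against 3.11, 2.82 and 5.42 FPKM among treated libraries (log2 difference 1.62 ± 0.29 SE; limma adjusted p = 0.133). Its control mean of 0.564 FPKM was below the filter, so it was tested because of its treated values; on an assumed fragment length of 200 bases the controls held about 13.4, 19.5 and 7.30 fragments. FMO GS-OX3 was at 2.72, 0.841 and 0.701 FPKM among controls against 6.36, 3.95 and 7.69 FPKM among treated libraries (1.59 ± 0.35 SE; limma adjusted p = 0.242). In both genes all treated values exceeded all controls. The ratio of FMO GS-OX1 to FMO GS-OX3 depended on the pseudocount: its log2 difference was 0.03 ± 0.18 (SE, n = 3 each; two-sided exact permutation p = 0.7) with 1 FPKM added and 0.55 (exact permutation p = 0.1) with 0.1 FPKM added.

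**Figure D1:**
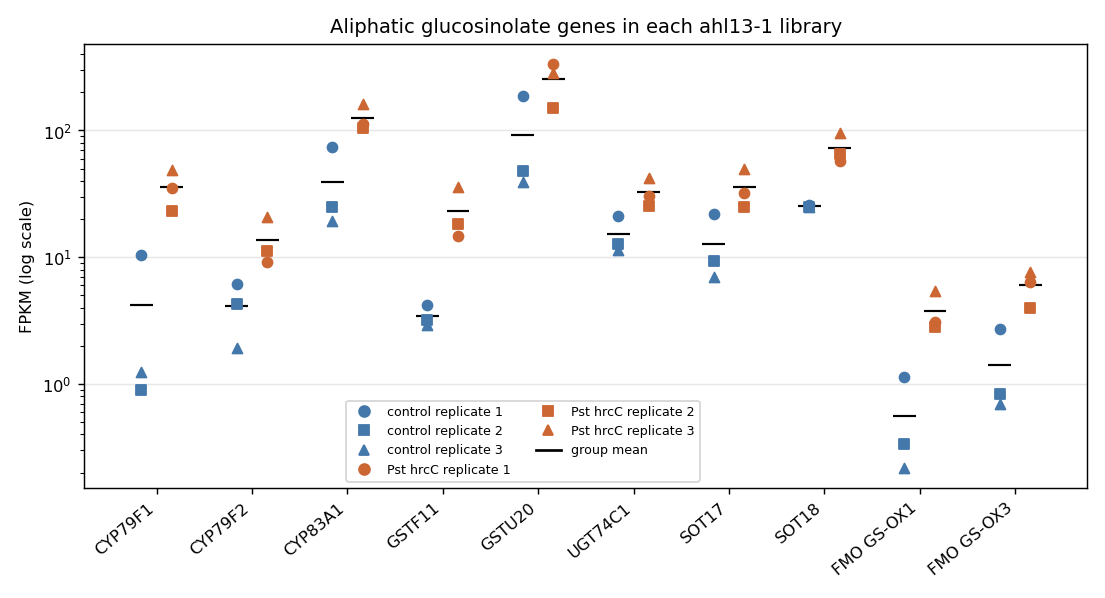
FPKM of the 10 genes on a log axis in the 3 control (blue) and 3 Pst hrcC (orange) libraries of ahl13-1; marker shapes give the replicate number and black lines the group means. Control replicate 1 is the highest control for every gene, and GSTU20 is the gene whose groups overlap.

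The 10 genes had the same highest control and, but for 1, the same highest treated library. Control replicate 1 was the highest control for 10 of 10, against 31.0% of tested genes, and Pst hrcC replicate 3 was the highest treated library for 9 of 10, against 44.6%, with GSTU20 highest in Pst hrcC replicate 1. The lowest libraries varied: Pst hrcC replicate 2 was the lowest treated library for 7 of 10, against 37.5% of tested genes, and Pst hrcC replicate 1 for CYP79F2, GSTF11 and SOT18, while the lowest control was replicate 2 for CYP79F1 and SOT18 and replicate 3 for the other 8. They differed in how far control replicate 1 stood out. The log2 range of the controls was 2.58 for CYP79F1 and 2.24 for GSTU20, wider than in 99.1% and 98.7% of tested genes, and 0.058 for SOT18, wider than in 1.86%. GSTF11, at 0.40, was near the median of 0.42. Summed over the 10 genes, the level was 356, 129.7 and 108 FPKM among controls against 635, 428 and 751 FPKM among treated libraries, with GSTU20 holding from 35.0% to 52.9% of each sum. The leaf marker sum was highest in replicate 1 of each group, as the sum over the 10 genes was among the controls but not among the treated libraries, at 30369 FPKM against 23724 and 25223 in controls and 33323 FPKM against 24379 and 22174 after treatment, and its part in these levels was not tested.

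Within same-numbered pairs every one of the 10 genes was higher after treatment, as were 21.2% of tested genes. For the 9 genes whose groups did not overlap this was fixed by that separation, so only GSTU20 could have differed. The median log2 difference over the 10 was 0.89, 1.47 and 2.75 in the pairs of replicates 1, 2 and 3, where that of all tested genes was 0.07, 0.02 and 0.00. The pair of replicate 1 gave the smallest difference for all 10 genes and the pair of replicate 3 the largest. For CYP79F1 the treated level was 3.37, 25.6 and 39.2 times the control level in the 3 pairs, and for SOT18 it was 2.22, 2.61 and 3.84 times. The root marker sum of control replicate 3 was the lowest of the 6 libraries, at 41.2 FPKM, beside 68.5 FPKM in Pst hrcC replicate 3. In that pair the 5 root hair markers differed more than the sum: the treated level was 14.3 times the control level for LRX1, 10.4 for PRP3, 9.60 for COBL9, 4.92 for EXPA18 and 4.55 for EXPA7, where in the pairs of replicates 1 and 2 these 5 ranged from 0.420 to 1.80 times. Of the 12 root markers tested, 11 had a higher mean log2 level after treatment and none passed. EXPA7 and EXPA18 had all treated values above their controls, against 7.66% of tested genes. CASP4, 1 of the 11, was tested because of its treated values, its control mean of 0.765 FPKM being below the filter. The part of root hair transcripts in the large differences of that pair was not tested.

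**Figure D2:**
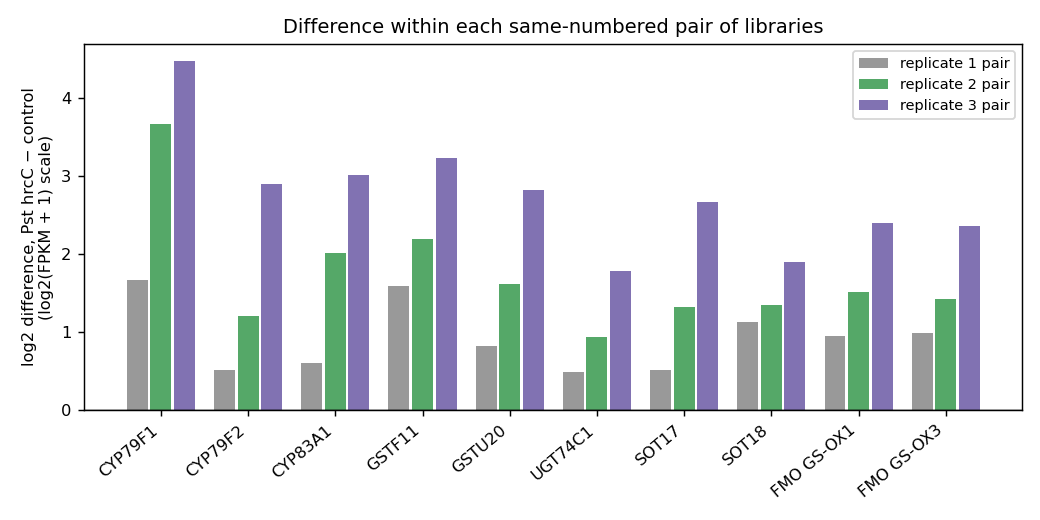
Difference between the Pst hrcC and the control library of the same replicate number for each of the 10 genes, in log2(FPKM + 1) units. All 30 bars are above 0, and for each gene the replicate 1 bar is the shortest and the replicate 3 bar the tallest.

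At each step with a counterpart in the indole branch, levels of the 2 branches were compared within libraries. The summed CYP79F genes stood at 0.295, 0.136 and 0.117 of the summed CYP79B2 and CYP79B3 level in controls and at 0.577, 0.303 and 0.476 after treatment. No treated ratio fell among the controls, and the log2 ratio was higher by 1.19 ± 0.43 (SE, n = 3 each; two-sided exact permutation p = 0.1; 0.267 adjusted over the 8 ratios). With 5 FPKM added to each term the groups overlapped (0.74; exact permutation p = 0.2). Summed SOT17 and SOT18 stood at 0.778, 0.816 and 1.04 of SOT16, the sulfotransferase of indole glucosinolates, in controls and at 1.11, 1.42 and 1.87 after treatment, again without overlap (0.71 ± 0.25 SE, n = 3 each; exact permutation p = 0.1; 0.267 adjusted over the 8).

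The oxidation and conjugation steps gave overlapping ratios. CYP83A1 was at 1.00, 0.334 and 0.339 of CYP83B1 in controls and at 0.825, 0.722 and 0.807 after treatment, so control replicate 1 exceeded all treated libraries (log2 difference 0.67 ± 0.51 SE, n = 3 each; exact permutation p = 0.4). Without the replicate 1 pair the log2 difference was 1.14. Summed GSTF11 and GSTU20 were at 0.330, 0.0980 and 0.0862 of summed GSTF9 and GSTF10 in controls and at 0.386, 0.144 and 0.229 after treatment (0.71 ± 0.73 SE, n = 3 each; exact permutation p = 0.3). GSTF11 was at 0.0223, 0.0671 and 0.0755 of GSTU20 in controls and at 0.0439, 0.122 and 0.128 after treatment (0.58 ± 0.76 SE, n = 3 each; exact permutation p = 0.5). In both groups GSTF11 took its lowest share in replicate 1.

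**Figure D3:**
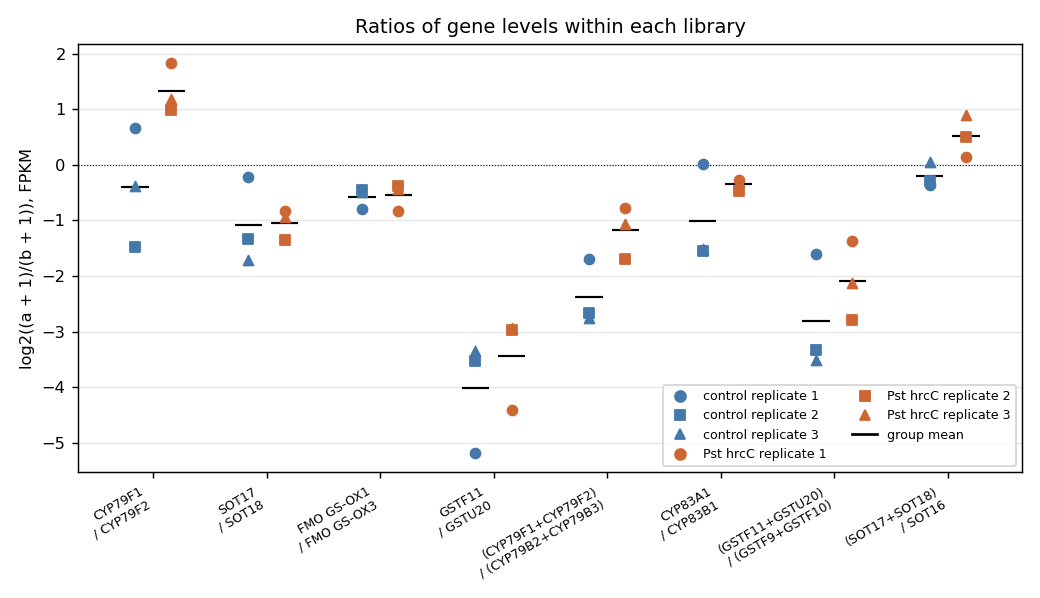
Log2 ratios of gene levels within each library, with 1 FPKM added to each term; blue points are control and orange points Pst hrcC libraries, shapes give the replicate number and black lines the group means. The groups are apart for CYP79F1 to CYP79F2, for the CYP79F to the CYP79B genes and for SOT17 plus SOT18 to SOT16, and overlap for the other 5 ratios.

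Other glucosinolate genes were taken from lists by role, and 35 were listed besides the 10. All 3 core enzymes that both branches use had treated values above their controls, against 7.66% of tested genes. UGT74B1 (AT1G24100) differed by log2 1.32 ± 0.20 (SE, limma adjusted p = 0.0806) and GGP1 by 1.63 ± 0.37 (SE, limma adjusted p = 0.249). Only SUR1 (AT2G20610), the C-S lyase that cleaves the conjugate, passed, where 0.284% of tested genes were called higher. SUR1 went from 7.60 ± 0.94 to 20.7 ± 3.63 FPKM (SD, n = 3 each; log2 difference 1.33 ± 0.17 SE; limma adjusted p = 0.0498, or 0.0623 with replicate number as a block). It missed the threshold in each fit that left out 1 library (limma adjusted p from 0.0541 to 0.313). The 2 adenosine phosphosulfate kinases that supply the sulfate donor of the sulfotransferases both had treated values above their controls, against 7.66% of tested genes. Of these 2 only APK2 (AT4G39940) passed, at 11.7, 7.81 and 5.70 FPKM among controls against 39.8, 34.5 and 52.2 FPKM among treated libraries (log2 difference 2.23 ± 0.27 SE; limma adjusted p = 0.0461, or 0.0650 with that block). It missed the threshold in 4 of the 6 fits that left out 1 library: those without control replicate 2 (limma adjusted p = 0.2515), control replicate 3 (0.194), Pst hrcC replicate 2 (0.189) and Pst hrcC replicate 3 (0.175). APK1 (AT2G14750) differed by log2 1.29 ± 0.34 (SE; limma adjusted p = 0.380).

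None of the 9 genes of methionine chain elongation and none of the 6 indole core enzymes passed, where 0.284% of tested genes were called higher. All 15 had treated values above their controls, against 7.66% of tested genes. The elongation list had a median log2 difference of 1.79; BCAT4 (AT3G19710), its first aminotransferase, differed by 2.63 ± 0.36 (SE; limma adjusted p = 0.0548) and BASS5 (AT4G12030), a plastid importer of the oxo acid, by 2.12 ± 0.35 (SE; limma adjusted p = 0.109). The indole list had a median of 1.16, with CYP83B1 (AT4G31500) at 1.21 ± 0.22 (SE; limma adjusted p = 0.133) and GSTF9 (AT2G30860) at 1.11 ± 0.22 (SE; limma adjusted p = 0.187).

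The 3 R2R3-MYB factors known to activate the aliphatic genes did not pass. MYB28 (AT5G61420) was at 16.8, 23.4 and 20.1 FPKM among controls against 23.8, 24.0 and 30.8 FPKM among treated libraries (log2 difference 0.37 ± 0.18 SE; limma adjusted p = 0.870). MYB29 (AT5G07690) was at 3.51, 1.49 and 1.61 and then at 9.01, 5.16 and 8.34 FPKM (1.43 ± 0.29 SE; limma adjusted p = 0.196). MYB76 (AT5G07700) was at 0.124, 0.0253 and 0.174 and then at 2.40, 3.19 and 7.05 FPKM (2.13 ± 0.32 SE; limma adjusted p = 0.0778), and was tested because of its treated values. MYB28 was the most abundant of the 3 in every library, and MYB76 had the largest log2 difference.

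The side chain genes outside the 10 were mixed. Of 9 listed, AOP2 was not analysed here, 3 (AOP3, BZO1 and SCPL17) were below 0.1 FPKM in every library and 5 were tested, of which none passed. GSL-OH (AT2G25450), a dioxygenase that hydroxylates alkenyl side chains, was at 135, 102 and 140.2 FPKM among controls against 177, 273 and 390 FPKM among treated libraries (1.09 ± 0.31 SE; limma adjusted p = 0.443). FMO GS-OX2 (AT1G62540), the closest paralog of FMO GS-OX1 in this comparison with 80.6% identity over the coding sequence, differed by 0.64 ± 0.22 (SE; limma adjusted p = 0.602). Its control mean of 0.878 FPKM was below the filter of 1 FPKM, so it was tested because of its treated values. FMO GS-OX4 (AT1G62570) and FMO GS-OX5 (AT1G12140) had log2 differences of -0.13 ± 0.27 and 0.02 ± 0.15 (SE; limma adjusted p = 1.00 each), beside 1.62 and 1.59 for FMO GS-OX1 and FMO GS-OX3; the difference between these differences was not tested. Of the 3 glucosinolate importers none passed, with GTR1 (AT3G47960) at 0.64 ± 0.19 and GTR2 (AT5G62680) at 0.29 ± 0.18 in log2 units (SE; limma adjusted p = 0.483 and 0.990).

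**Figure D4:**
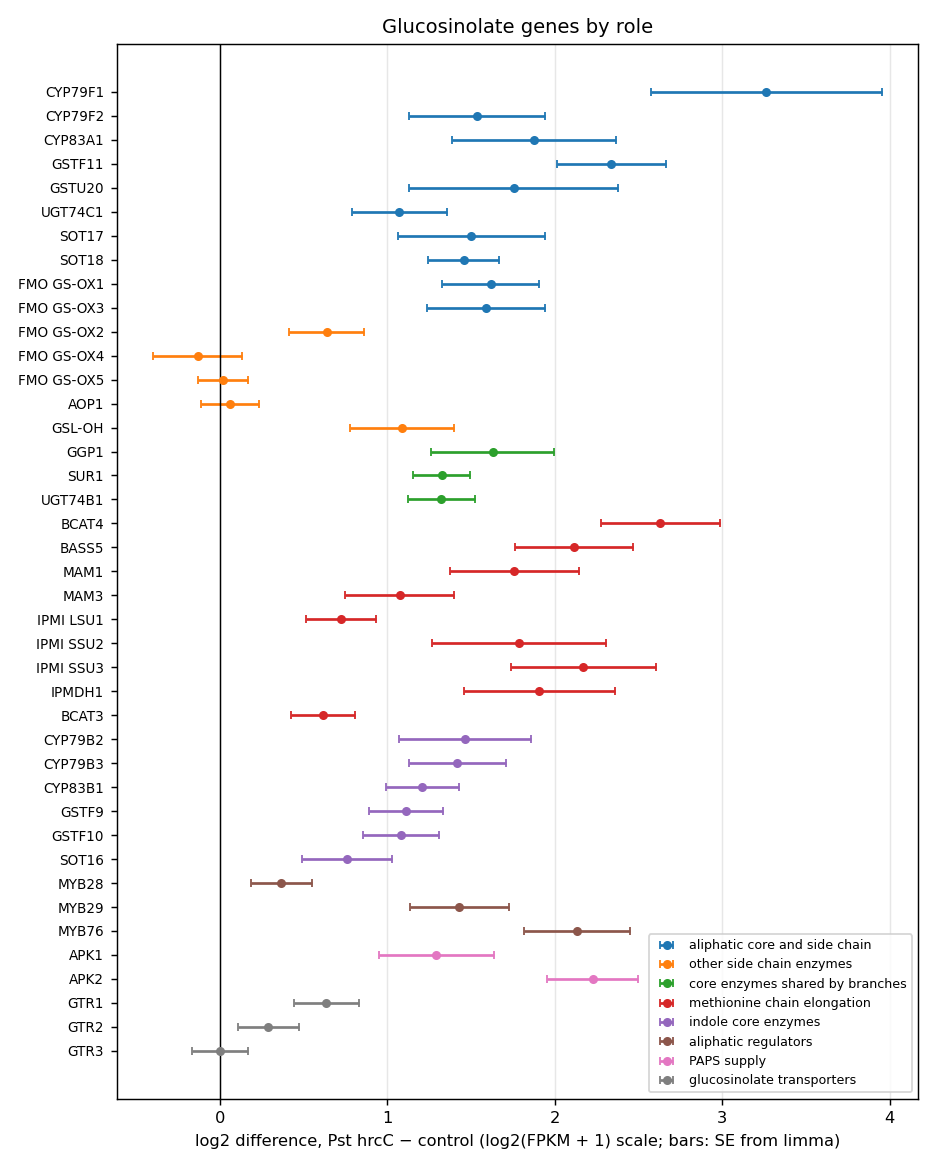
Log2 difference between Pst hrcC and control with its SE from limma for every tested glucosinolate gene, coloured by role. CYP79F1 has the largest difference, at 3.27, and FMO GS-OX4, FMO GS-OX5, AOP1 and GTR3 lie within 1 SE of 0.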

How the data were processed

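The members and gene lists were chosen with earlier results of these data known. Groups and replicate numbers came from the sample titles; no label states that replicates were grown separately, so a p-value reflects the spread among these libraries, which may be technical. The libraries were paired-end mRNA libraries, per the labels' protocols. Reads were processed with TopHat2 2.1.1, Cufflinks 2.2.1 and FastQC on TAIR10, per the submitters' processing notes; strand, annotation and settings are not given there. The authors deposited FPKM, which was not rescaled.

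The 16923 genes averaging 1 FPKM or more (10448 left out) entered limma 3.58.1 (R 4.3.3) as log2(FPKM + 1) (variance trend, treatment only, 4 residual degrees of freedom, two-sided), checked on simulated data. Relative depth was read from the most frequent smallest value times length among 10558 single-transcript genes; absolute depth is unknown. Named genes are the 10, every listed gene called and otherwise the 2 with the smallest p of a list, and the 5 most alike in pattern; others were chosen after their values were seen. Deviations from group means correlated at 0.43, 0.17 and 0.13 between libraries numbered 1, 2 and 3 across genes, each over the 0.1 set for treating the numbers as pairs; this comes from the data, and control 3 correlated more with Pst hrcC 2 (0.21) than with Pst hrcC 3. The main fit and the permutation tests left the replicate numbers out, so their p-values are unpaired. The block was run only as an alternative, and with it neither SUR1 nor APK2 passed. Windows were read with RefSeq's own TAIR10.1 annotation, and coding sequences were aligned with Biopython 1.88. The alternatives were other pseudocounts, filters, scalings, weights and a replicate block, and leaving out libraries.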

Additional observations from a re-analysis of the deposited data

How the results depend on the processing

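All 10 genes kept a positive log2 difference under all 17 alternatives in which they were tested (FMO GS-OX1 and FMO GS-OX3 fell below the filter at a mean of at least 5 FPKM), and their median stayed between 1.28 and 2.03. In place of none, 7 passed with array weights (all but CYP79F2, GSTU20 and SOT17; limma called 2.19% of tested genes higher), where control replicate 2 had a weight of 5.01 and the other libraries from 0.432 to 1.85. CYP79F1 alone passed after rescaling over nuclear genes, which made 1 (limma adjusted p = 0.0013). The sum used for that rescaling kept AT2G01021, which held from 15.6% to 52.0% of summed FPKM, so the setting carries the unequal share of that transcript. Without the replicate 1 pair 3 passed (CYP79F1, CYP83A1 and GSTF11). Leaving out 1 library gave 0 to 2. None passed with the replicate block, where the lowest limma adjusted p was 0.0679 (SOT18); of the pathway genes called, the block ended SUR1 and APK2, and it changed no call of the 10 genes. SUR1 and APK2 also missed the threshold with a pseudocount of 5 FPKM, with no filter and after median-of-ratios, quantile or nuclear rescaling (limma adjusted p from 0.0531 to 1.00), and SUR1 with no variance trend (0.0520) and without the replicate 1 pair (0.0596).

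Of all genes 49 were called. The number was 407 under array weights, 182 for the libraries other than the replicate 1 pair, 116 after rescaling over nuclear genes, 47 with the replicate block, 17 with a pseudocount of 5 FPKM and 2 with no filter on low values; leaving out 1 library gave 2 to 180. The cause of these shifts was not tested. Differences in log2 ratio near 0 changed sign: with a pseudocount of 5 FPKM they were -0.10 for SOT17 to SOT18, -0.13 for FMO GS-OX1 to FMO GS-OX3 and -0.032 for GSTF11 to GSTU20, and leaving out 1 library gave -0.26 to 0.48 for SOT17 to SOT18 and -0.081 to 0.18 for FMO GS-OX1 to FMO GS-OX3. The 3 ratios whose groups were apart kept their direction in the 10 alternatives run on ratios (pseudocounts, libraries left out and the block; no other scaling was run on them), but the groups of the CYP79F to CYP79B ratio overlapped with 5 FPKM added; CYP79F1 to CYP79F2 ranged from 1.19 to 2.26 without 1 library. Values of a few FPKM in the shallow control replicate 1 and Pst hrcC replicate 3 rest on few fragments, and with 3 libraries a group no ratio could pass 0.05.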

Other observations

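Besides the 10 genes, 5 had the pattern most like their mean standardised profile over the 6 libraries, by Pearson's r of log2(FPKM + 1). The libraries share the treatment contrast and their scaling, so r is a description. IPMI SSU3 (AT3G58990), a small subunit of the isomerase of methionine chain elongation, had r = 1.00 and stood at 26.7, 11.7 and 9.17 FPKM among controls against 60.0, 50.2 and 104 FPKM among treated libraries. GGP1 (AT4G30530), a peptidase that trims the glutathione conjugate in the core pathway, had r = 0.995 and stood at 30.1, 13.2 and 11.9 and then at 47.7, 46.7 and 72.0 FPKM. APR1 (AT4G04610), a reductase of sulfate assimilation, had r = 0.997 and stood at 16.6, 7.37 and 5.69 and then at 26.7, 23.4 and 42.0 FPKM. CER3 (AT5G57800), an enzyme of cuticular wax synthesis, and AT4G36640 had r = 0.997 and r = 0.998. None of the 5 passed the test across all genes (limma adjusted p from 0.187 to 0.308).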
